A study of Mus musculus with 4 samples.

Results

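The homeodomain proteins and the zinc-finger factors that work beside them are transcription factors that pattern the embryonic forebrain, and 40 such genes were followed through the cell classes of the mouse posterior substantia innominata. The members were named as patterning factors with no threshold on their counts, but with earlier results of these data known. All 40 were matched to 1 gene identifier each among the 31899 genes listed in every library. Nuclei came from microdissected posterior substantia innominata of wild type mice aged 8 weeks. There were 2 male and 2 female libraries, and the sources used here give no strain. No animal carried a transgene or a treatment per the labels, which do not say how many animals went into a library. Since libraries of 1 sex are not said to come from separate animals, a p-value here speaks only of how far these samples scatter, and that scatter may be technical.

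Homeodomain factors bind short AT-rich DNA elements, commonly around a TAAT core, and act in combinations. During development each forebrain territory switches on its own set, and many neurons keep part of that set for life. NKX2-1 starts a cascade in the medial ganglionic eminence and preoptic area in which LHX6 and LHX8 follow, LHX6 in GABAergic and LHX8 in cholinergic descendants, the latter together with ISL1. DLX factors are shared by GABAergic cells of the whole subpallium. EMX2, LHX2 and PAX6 are made in cortical progenitors, while OTP, LHX1, LHX5 and LHX9 are made in the hypothalamus, prethalamus and thalamic eminence. The substantia innominata lies in the basal forebrain between striatum and hypothalamus, so cells from several of these territories can meet in it. Embryonic origin itself was not measured. What follows are levels in adult nuclei, set against lists of genes that textbook knowledge ties to each territory.

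Nuclei were sorted into classes by raw counts of unique molecular identifiers (UMIs) of genes that are not members. Cholinergic nuclei had at least 2 UMIs of Chat plus Slc5a7, the genes of acetylcholine synthesis and choline uptake. The other neurons were GABA nuclei (Gad1 plus Gad2, which make GABA), Slc17a6 nuclei and Slc17a7 nuclei (the 2 vesicular glutamate transporters), again with at least 2 UMIs. Astrocytes, oligodendrocytes, oligodendrocyte precursor cells (OPC) and microglia were gated in the same way, and nuclei that met more than 1 gate were dropped. The GABA class was further split by Drd1, Drd2, Moxd1, Npsr1 (at least 2 UMIs each) or Sst (at least 3 UMIs). Values are in CPM, the UMIs of a gene for every 1000000 UMIs in the summed nuclei of a class in 1 library. They are given in the order male 1, male 2, female 1 and female 2. CPM depends on transcript and intron length, so it is compared between classes for 1 gene and not between genes.

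The classes were small in part, and the sexes differed in depth. Male libraries held 8829 and 8577 nuclei with medians of 10406 and 10015 UMIs. Female libraries held 10881 and 10581 nuclei with medians of 4192 and 3806 UMIs. Cholinergic nuclei numbered 76, 86, 136 and 78, GABA nuclei 3913, 3824, 3086 and 2737, and Slc17a6 nuclei 328, 344, 138 and 128. Slc17a7 nuclei numbered only 36, 27, 2 and 22, and the 2 nuclei of female 1 were left out of every test and mean, as were 5 GABA Sst nuclei of that library. Barcodes shared between libraries numbered 23 for the males and 35 for the females, with 0 between sexes. Classes carried markers that the gates had not used. Ngfr, the low-affinity neurotrophin receptor of basal forebrain cholinergic neurons, stood at 14.5, 16.6, 11.4 and 13.6 CPM in cholinergic nuclei against 0.106, 0.148, 0.311 and 0.517 CPM in GABA nuclei, and Neurod6, a cortical pyramidal cell factor, at 38.2, 39.4 and 23.7 CPM in the 3 Slc17a7 sums used. The cholinergic markers Slc18a3 and Ecel1 were likewise present in all 4 cholinergic sums.

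The sequences just upstream of 4 members are shown because these genes carry the class differences described next: Lhx8 and Isl1 were high together in cholinergic nuclei, Lhx2 in Slc17a6 nuclei and Zeb2 in Slc17a7, GABA Moxd1 and glial nuclei. They are taken from the RefSeq promoter table on GRCm38.p6, run 5′ to 3′ and stop at the RefSeq or the GENCODE start, whichever comes first. The Lhx8 stretch is chr3:154330660-154330810, minus strand, before a gene at chr3:154306294-154330659, and the Isl1 stretch chr13:116309690-116309938, minus strand, before a gene at chr13:116298281-116309689. The Lhx2 stretch is chr2:38339031-38339280, plus strand, before a gene at chr2:38339281-38369733, and the Zeb2 stretch chr2:45117443-45117692, minus strand, before a gene at chr2:44983632-45117395. Gene ends are those of GENCODE vM21 on the same build. Capitals mark the homeodomain core TAAT on either strand (TAAT or ATTA).
Lhx8: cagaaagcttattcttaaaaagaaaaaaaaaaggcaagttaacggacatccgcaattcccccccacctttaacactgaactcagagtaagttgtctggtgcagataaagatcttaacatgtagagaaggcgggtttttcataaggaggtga
Isl1: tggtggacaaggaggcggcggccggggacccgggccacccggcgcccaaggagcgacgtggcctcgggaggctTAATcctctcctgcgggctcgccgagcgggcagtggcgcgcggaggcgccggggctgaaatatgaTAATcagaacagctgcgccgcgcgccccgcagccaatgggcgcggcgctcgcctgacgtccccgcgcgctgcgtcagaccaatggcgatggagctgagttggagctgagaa
Lhx2: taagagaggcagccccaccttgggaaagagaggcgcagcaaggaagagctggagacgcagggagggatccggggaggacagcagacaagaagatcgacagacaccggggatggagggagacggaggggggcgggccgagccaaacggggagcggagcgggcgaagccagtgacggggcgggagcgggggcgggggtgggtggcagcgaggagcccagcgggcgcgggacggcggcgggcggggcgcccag
Zeb2: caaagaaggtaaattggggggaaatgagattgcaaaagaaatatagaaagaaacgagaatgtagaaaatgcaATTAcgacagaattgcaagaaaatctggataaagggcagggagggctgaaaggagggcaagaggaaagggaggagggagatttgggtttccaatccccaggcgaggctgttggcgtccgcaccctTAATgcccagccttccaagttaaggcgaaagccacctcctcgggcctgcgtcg
RefSeq held a promoter window of 300 bases, which runs on past the RefSeq start, for 29 of the 40 members. The stretches above are the upstream part of such windows, and the counts below are of whole windows. TAAT on either strand occurred in 13 of these 29 (44.8%), against 58.0% of 32851 promoters of the same length. The longer element TAATTA, which contains both TAAT and ATTA, occurred in 1 of 29 (3.45%), that of Emx2, against 5.29% of all. Lhx8 and Lhx2 held no TAAT in their windows, which says only that these letters were not in this stretch.

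Over the 8 classes, 190154361 UMIs from 21893 nuclei were summed. Six6, an eye and hypothalamic factor, had 0 UMIs, which allows at most 0.0158 CPM (3 UMIs of the total, counting error only). Vax1, a ventral forebrain factor, had 18 UMIs. Of the 40 members, 30 passed the filter on low counts in the comparison of classes and 31 in the comparison of GABA subclasses. The 10 below the filter in the class comparison (Lhx1, Lhx5, Nkx2-1, Dlx1, Dlx2, Dlx5, Dlx6, Otp, Six6 and Vax1) include several that mark a territory, so their tests come from the fit without the filter and are named as such. A member was called in a class with a Benjamini-Hochberg adjusted p under 0.05 over all genes tested (edgeR quasi-likelihood test) and an absolute log2 fold change of at least 1. Between the class and subclass fits, 35 members were tested and 32 were called somewhere. The share of all genes called somewhere was not counted. Glial contrasts alone called 8.67% to 16.9% of all genes in each direction, so this count is not read as a trait of the members. Pou6f1, Cux1 and Dlx6 passed a filter and were called in none of these contrasts.

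**Figure D1:**
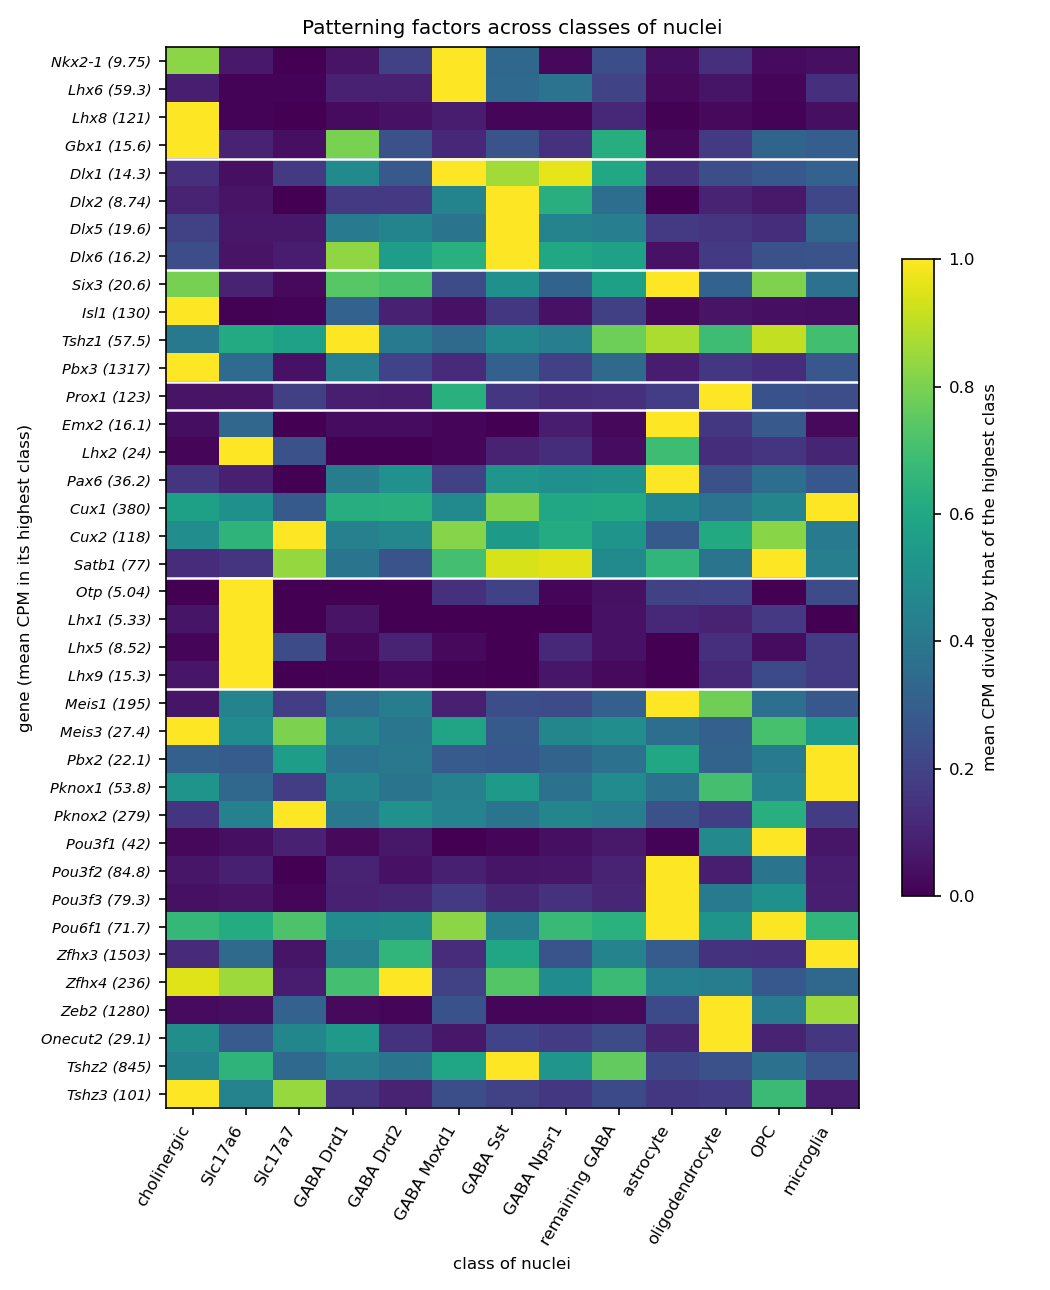
Mean CPM of the members over the libraries of each class (columns, with the GABA class shown by subclass), each row divided by its highest mean, which is given in CPM beside the gene. White lines part the territory lists. Six6 and Vax1 are not drawn. Lhx8 and Isl1 peak in cholinergic nuclei, Lhx1, Lhx2, Lhx5, Lhx9 and Otp in Slc17a6 nuclei, and Pou3f2, Pou3f3 and Emx2 in astrocytes.

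Cholinergic nuclei were high in Lhx8 and Isl1. Members rose from both the medial ganglionic eminence and preoptic list and the lateral ganglionic eminence and striatal list. Isl1 is placed on the latter list, although it also goes with Lhx8 in cholinergic descendants of the medial ganglionic eminence. The counts by list depend on that placement and do not settle a territory. Of the 30 members tested against the mean of the other 3 neuron classes, 7 were higher, beside 4.05% of 12782 genes, and 6 were lower, beside 3.98%. The median log2 difference of the members was 0.38, and that of all genes 0.04. Of the medial ganglionic eminence and preoptic list, Lhx8 and Gbx1 rose out of 3 tested, and Nkx2-1 also did in the fit without the filter. Of the lateral ganglionic eminence and striatal list, Isl1, Pbx3 and Six3 rose out of 4. Of the pallial list of 6, Lhx2 and Satb1 fell and none rose. Without Slc17a7 nuclei the counts were 7 higher and 5 lower of 29, beside 3.60% and 3.84% of 12407 genes, and without the filter 8 and 6 of 39, beside 2.84% and 2.68% of 26714. With neither, they were 8 and 7 of 39, beside 2.72% and 3.25% of 26701.

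Lhx8, the LIM-homeodomain factor that cholinergic forebrain neurons need, reached 112, 110.3, 140.5 and 123 CPM in cholinergic nuclei and 10.1, 10.4, 10.7 and 16.4 CPM in GABA nuclei. Every cholinergic library lay far above every library of another neuron class, where Slc17a6 nuclei had 0.443, 0.428, 2.29 and 1.81 CPM. Slc17a7 nuclei held 0 UMIs of Lhx8, so the fold against them is a bound: pooled cholinergic nuclei were at least 52.7-fold higher (floor of 3 UMIs over the group). Against GABA and Slc17a6 nuclei alone the log2 difference was 5.36 (SE 0.17, adjusted p = 2.38e-21). This comparison without Slc17a7 nuclei was added after the data were seen, and it is used below for the differences given of genes with 0 UMIs in Slc17a7 nuclei. Isl1, a LIM factor of cholinergic and striatal projection neurons, stood at 112, 164, 105 and 137 CPM against 25, 24.9, 15.8 and 25.3 CPM in GABA nuclei, a log2 difference from the other neurons of 5.26 (SE 0.21, adjusted p = 1.34e-20). All 4 cholinergic values of Isl1 exceeded all values of the other neuron classes.

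After thinning each nucleus to 2000 UMIs, Lhx8 was seen in 23.7%, 20.9%, 26.7% and 23.4% of cholinergic nuclei. The exact Clopper-Pearson 95% interval, which covers counting error only here and below, ran from 14.7% to 34.8% in male 1 and 19.4% to 35% in female 1, so the libraries were not told apart. Isl1 was seen in 21.1%, 36%, 25.2% and 28.6% of them. In oligodendrocytes, which should lack both genes, the thinned shares were 0%, 0.19%, 1.04% and 0.665% for Lhx8 and 0.324%, 0.951%, 1.04% and 1.33% for Isl1. At full depth, Lhx8 was seen in 71.1%, 68.6%, 49.3% and 62.8% of cholinergic nuclei, whose medians were 20337.5, 19328.5, 7299 and 8769.5 UMIs, and in 0.394%, 0.419%, 0.914% and 0.865% of oligodendrocytes, whose medians were 2155, 2091, 1824 and 1499 UMIs. The full-depth shares follow depth and are not comparable between sexes.

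Gbx1, a Gastrulation-brain-homeobox factor, was at 11.4, 10.9, 19 and 21 CPM against 6.15, 5.94, 7.99 and 13.8 CPM in GABA nuclei. Its log2 difference from the mean of the other neuron classes was 2.84 (SE 0.35, adjusted p = 5.9e-08). That mean was drawn down by Slc17a6 and Slc17a7 nuclei, at 0.0938 and 0.0402 of the cholinergic mean. The lowest cholinergic value lay below the highest GABA value, that of female 2. Nkx2-1 had 7.23, 14.9, 3.8 and 6.29 CPM, from 12, 26, 4 and 6 UMIs, against 2.4, 2.16, 2.34 and 3.2 CPM in GABA nuclei. Without the filter and without Slc17a7 nuclei its difference was 2.55 (SE 0.37, adjusted p = 1.3e-10). After thinning, Nkx2-1 was seen in 0%, 4.65%, 0% and 1.3% of cholinergic nuclei and in 0.485%, 0.57%, 0.414% and 0% of oligodendrocytes, with overlapping 95% intervals in all 4 libraries. Lhx6, the GABAergic branch of the same cascade, had 5.42, 1.72, 5.69 and 7.34 CPM and was not called.

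Pbx3, a TALE cofactor that binds DNA with other homeodomain proteins, had 1261, 1488, 1436 and 1084 CPM in cholinergic and 433, 429, 508 and 329 CPM in GABA nuclei. The log2 difference was 2.55 (SE 0.09, adjusted p = 2.1e-21), with no overlap between the 2 classes. Six3, a factor of anterior forebrain and of striatal Drd2 neurons, had 15.7, 14.3, 10.4 and 25.2 CPM. Its difference from the mean of the other neuron classes was 2.70 (SE 0.31, adjusted p = 1.45e-08). Its cholinergic values overlapped the GABA values of 11.5, 11.1, 9.39 and 14.2 CPM, however, and it was seen in 1 Slc17a7 nucleus of male 1. Tshz3, a teashirt zinc-finger factor, had 101, 111, 74 and 116 CPM, a difference of 1.26 (SE 0.15, adjusted p = 2.05e-08). It stood well above GABA nuclei at 23.9, 22.5, 14.7 and 23.7 CPM and overlapped Slc17a7 nuclei. The seventh member called higher, Zfhx4, rested on the low Slc17a7 values: its log2 difference was 1.58 with that class and 0.41 without it, under the threshold.

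Among the members that fell in cholinergic nuclei, Meis1, a TALE factor, was lowest in female 2, at 13.9, 9.72, 18 and 2.1 CPM against 56.4, 63.9, 62.8 and 50.04 CPM in GABA nuclei. The log2 difference was -2.22 (SE 0.25, adjusted p = 5.84e-09), with no overlap. Lhx2 had 1.2, 0.572, 0 and 0 CPM, a difference of -3.12 (adjusted p = 0.00527), from at most 2 UMIs in a library. Pknox2, another TALE factor, fell to 46.4, 34.3, 49.3 and 39.8 CPM against 128, 128, 115 and 111 CPM in GABA nuclei, a difference of -1.89 (adjusted p = 9.68e-14). Satb1 was lower as well (-1.71, adjusted p = 8.05e-06). Zeb2 and Prox1 were called lower too, but without Slc17a7 nuclei their differences were -0.33 (adjusted p = 0.426) and -0.80 (adjusted p = 0.0416), neither a call. Prox1 was also not called without male 1 or without female 2. That same fit called Meis3 higher (1.11, adjusted p = 4.94e-06) and Zfhx3 lower (-1.58, adjusted p = 2.71e-11).

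**Figure D2:**
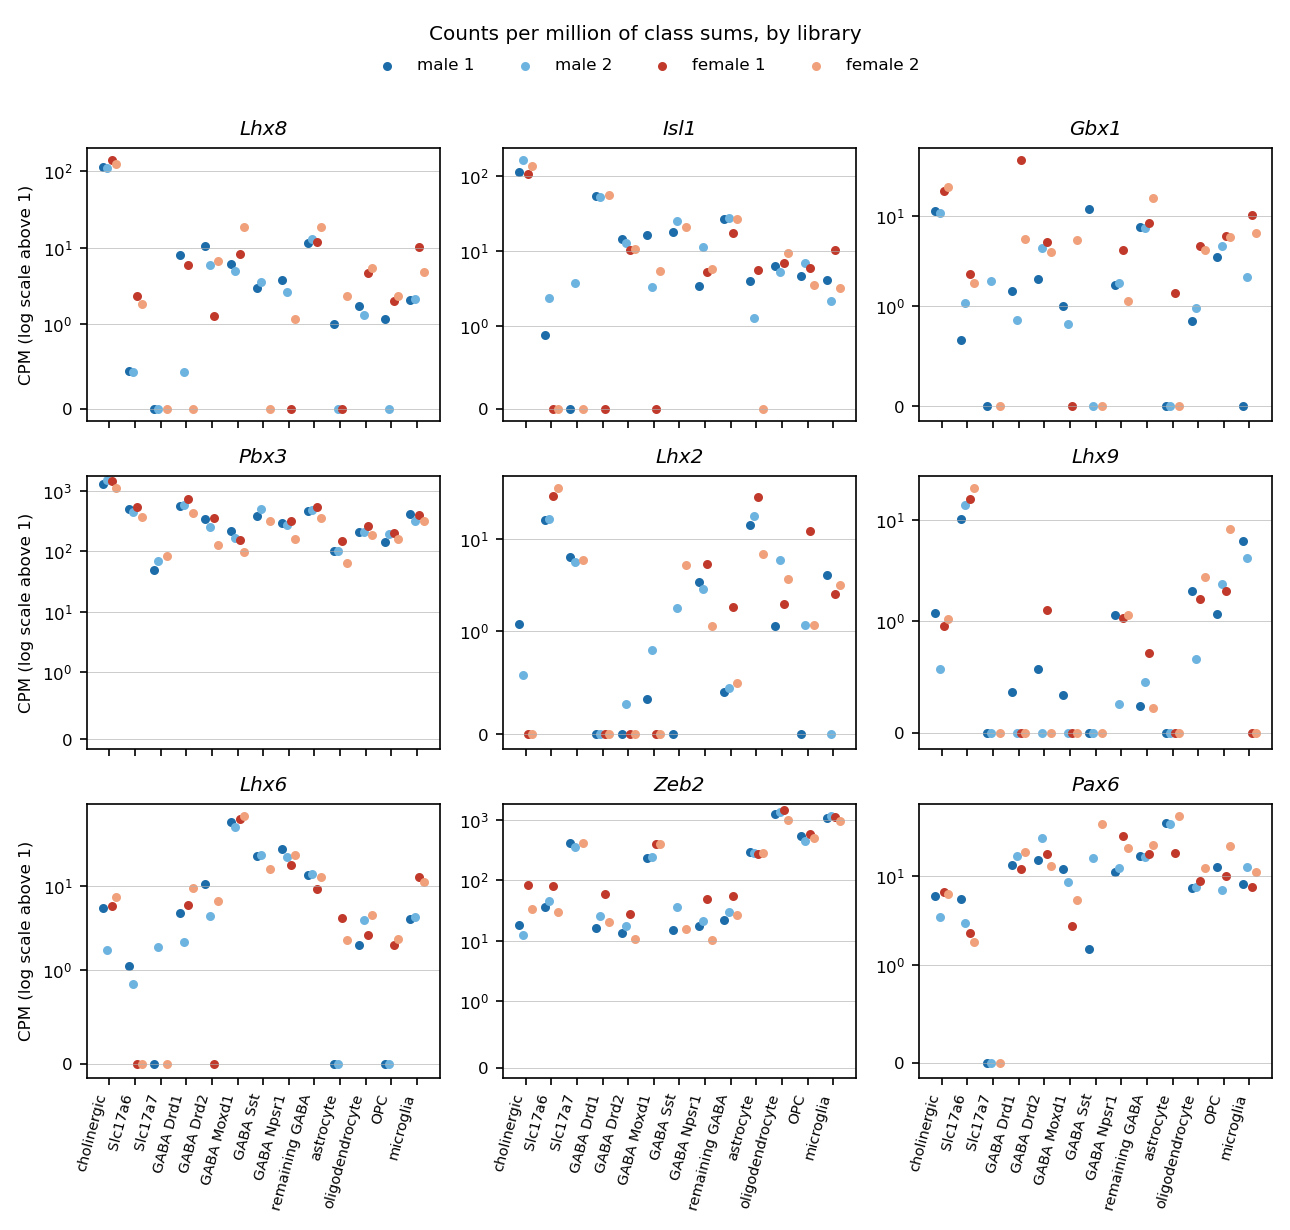
CPM of 9 members (panels) in each class of nuclei, with 1 point per library and an axis that is logarithmic above 1 CPM. Lhx8 and Isl1 are above 100 CPM in all 4 cholinergic sums and nowhere else, Lhx6 is highest in GABA Moxd1 nuclei, and Zeb2 is above 200 CPM in Slc17a7, GABA Moxd1 and glial sums.

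GABA nuclei carried the DLX set and Lhx6, with Pax6 and Six3. Of 30 members tested, 9 were higher (1.96% of all genes) and 3 lower (1.33%), with a median log2 difference of 0.38 beside 0.04 for all genes. Without Slc17a7 nuclei, 7 of 29 were higher and 2 lower, beside 1.90% and 1.36% of 12407 genes. In the fit without the filter, all 4 DLX members were higher, and Vax1, the fifth gene of the general subpallial list, was not. That fit called 14 of 39 members higher and 2 lower, beside 2.47% and 0.636% of 26714 genes, and without Slc17a7 nuclei as well it called 11 and 5, beside 2.20% and 0.974% of 26701.

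Dlx1, which with its partners drives GABAergic differentiation, had 11, 11.5, 4.46 and 7.94 CPM in GABA nuclei, 3.01, 2.86, 0.949 and 1.05 CPM in cholinergic and 0.221, 1.28, 0 and 0.906 CPM in Slc17a6 nuclei. The GABA values were above all of these, and the log2 difference without the filter was 2.61 (SE 0.28, adjusted p = 6.38e-18). The paired genes of the second cluster had log2 differences of 2.42 (adjusted p = 1.4e-13) for Dlx5 and 2.54 (adjusted p = 6.27e-16) for Dlx6. Dlx2, with 0 UMIs in Slc17a7 nuclei, differed by 2.44 (adjusted p = 2.36e-07) from cholinergic and Slc17a6 nuclei alone. Dlx1 and Dlx6 lie opposite antisense transcripts (Dlx1as, Dlx6os1), and reads of the pairs may not have been told apart.

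Lhx6 had 16.8, 15.3, 10.4 and 14.4 CPM in GABA nuclei, above every value in cholinergic and Slc17a6 nuclei, where the highest was 7.34 CPM. The log2 difference was 3.26 (SE 0.35, adjusted p = 1.03e-08). Pax6, a paired-type factor, reached 15.8, 16.2, 17.9 and 21.7 CPM against 6.02, 3.43, 6.64 and 6.29 CPM in cholinergic nuclei. Its difference without Slc17a7 nuclei, which held 0 UMIs, was 1.89 (SE 0.19, adjusted p = 5e-09). The large zinc-finger homeodomain factor Zfhx3 had 641, 621, 685 and 665 CPM in GABA nuclei and rose by 1.75 (adjusted p = 7.71e-12), and Pou3f3 rose by 1.64 (adjusted p = 0.000104). GABA nuclei overlapped cholinergic nuclei in Six3, which was called higher (1.95, adjusted p = 3.12e-06), and both glutamatergic classes were low in it.

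The Slc17a7 class decided further calls in GABA nuclei. Lhx8 was at least 4.97-fold higher in GABA than in Slc17a7 nuclei, yet differed from the other 2 classes by 0.19 (adjusted p = 0.717), which is no call. Pou3f2 differed by 0.22 (adjusted p = 0.578) there, and Zeb2, called lower at first, by 0.02 (adjusted p = 0.984). Isl1 and Gbx1 kept their sign but fell under the fold threshold, at 0.76 and 0.82. Tshz3 was lower in GABA nuclei with that class (-1.84, adjusted p = 7.71e-12) and without it (-1.69, adjusted p = 1.83e-11). Lhx2 was called lower only with it, and not without male 1 (adjusted p = 0.362) or male 2 (adjusted p = 0.0656). Prox1 and Satb1 were called higher only without it, by 1.37 (adjusted p = 5.19e-07) and 1.72 (adjusted p = 2.42e-10).

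Slc17a6 nuclei showed another pattern, in which genes of the hypothalamic, prethalamic and thalamic eminence list stood beside 2 pallial genes. Of 30 members, 7 were higher (1.74% of all genes) and 2 lower (1.10%), with a median of -0.12 beside 0.01 for all genes. Lhx9, the single gene of the hypothalamic list that passed the filter, was higher. Without the filter, Lhx1, Lhx5 and Otp were higher as well, 4 of the 4 that could be tested, in a fit that called 1.63% of all genes higher. Lhx2 and Emx2 rose from the pallial list of 6, and Satb1 fell. Without Slc17a7 nuclei the direction of the counts turned, with 3 higher and 6 lower of 29, beside 1.87% and 1.75% of all genes. Without the filter they were 10 and 4 of 39 (1.63% and 0.621%), and with neither 7 and 11 of 39 (1.68% and 1.30%).

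Lhx2, a LIM factor of cortex, eye and thalamus, had 15.9, 16.3, 28.6 and 35.3 CPM in Slc17a6 nuclei and 0.564, 0.648, 1.87 and 0.564 CPM in GABA nuclei. All 4 libraries lay above every other neuronal value of the gene, the next being 6.36, 5.63 and 5.91 CPM in Slc17a7 nuclei. The log2 difference was 3.84 (SE 0.37, adjusted p = 2.08e-09). Lhx9, its close relative in the LIM family, had 10.2, 14.1, 16 and 20.8 CPM against 1.2, 0.572, 0.949 and 1.05 CPM in cholinergic nuclei, a difference without Slc17a7 nuclei of 4.47 (SE 0.37, adjusted p = 2.31e-10). Emx2 had 5.09, 5.56, 8.02 and 2.72 CPM and differed by 3.12 (SE 0.42, adjusted p = 5.46e-12) without Slc17a7 nuclei and without the filter.

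Lhx5 had 9.08, 11.1, 5.73 and 8.15 CPM, Lhx1 3.32, 3.64, 8.02 and 6.34 CPM and Otp, a factor of hypothalamic neuroendocrine neurons, 5.98, 5.99, 4.58 and 3.62 CPM in Slc17a6 nuclei. Each was above all GABA values, which were at most 0.658 CPM for Lhx5, 0.415 CPM for Lhx1 and 0.329 CPM for Otp. In Slc17a7 nuclei a single UMI of Lhx5 was found, in female 2. Without filter and Slc17a7 nuclei, the log2 differences were 4.91 (adjusted p = 6.98e-25) for Lhx5 and 4.06 (adjusted p = 1.23e-11) for Lhx1. Cholinergic nuclei held 0 UMIs of Otp, so that Slc17a6 nuclei were at least 10.2-fold higher. Meis1 was higher too, at 100.3, 97.5, 102 and 52.5 CPM, by 1.71 (adjusted p = 6.7e-10), although its female 2 value lay among those of GABA nuclei. Zfhx3, Zfhx4 and Pou3f2 were called higher, but without Slc17a7 nuclei their differences were 0.55, 0.07 and 0.29, below the fold threshold. The call of Pou3f2 was lost without male 1 or male 2 as well.

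The genes of ventral and striatal territories were low here. Isl1 had 0.886, 2.35, 0 and 0 CPM and fell by 5.41 (adjusted p = 4.74e-16) against cholinergic and GABA nuclei. Its call against all 3 classes (-3.70, adjusted p = 0.00298) was lost without male 2. In the added fit without the filter or Slc17a7 nuclei, Lhx6, Lhx8, Nkx2-1 and Gbx1 (4 of 4 in the medial ganglionic eminence and preoptic list) and the 4 DLX members were lower, and 1.30% of all genes were. Six3 (-2.88, adjusted p = 6.54e-10) and Pax6 (-1.34, adjusted p = 0.000933) were lower without Slc17a7 nuclei.

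Slc17a6 nuclei were also examined for more than 1 of these factors in a nucleus. With a threshold of 2 UMIs, Lhx2 was seen in 16, 16, 7 and 8 nuclei, Lhx9 in 14, 17, 3 and 4, Lhx1 or Lhx5 in 11, 14, 2 and 2, and Otp in 1, 4, 1 and 0. Of the nuclei with Lhx9, Lhx2 was also seen in 1 of 14, 2 of 17, 2 of 3 and 0 of 4. Lhx2 met Lhx1 or Lhx5 in 1 nucleus in all, and Otp met Lhx1 or Lhx5 in 1 nucleus in all. These counts were not compared with those of independent factors. In 285, 297, 127 and 114 nuclei none of these factors, nor Six3, reached 2 UMIs. At these levels a nucleus with few UMIs of a factor cannot be told from one without it. Thinned shares of Lhx2 were 2.13%, 4.07%, 2.92% and 4.69%, against 0.324%, 0.76%, 0.414% and 0.887% in oligodendrocytes. Full-depth shares of Lhx2 were 14.6%, 11.9%, 13% and 14.8% in Slc17a6 nuclei, at medians of 12279, 11980, 5856 and 6311 UMIs.

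**Figure D3:**
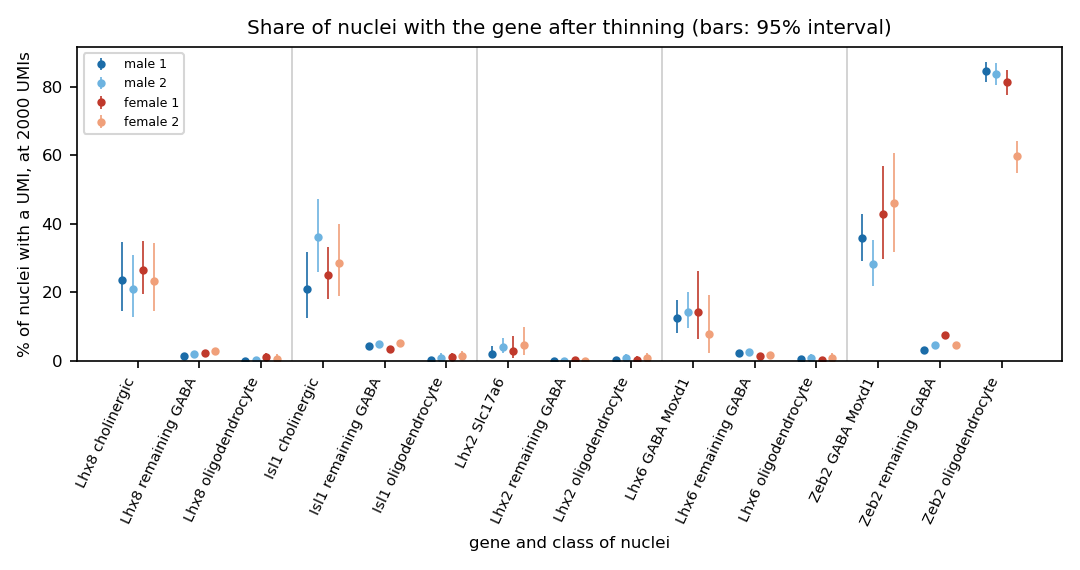
Share of nuclei with at least 1 UMI of a member after thinning to 2000 UMIs, by library, with 95% intervals (exact, Clopper-Pearson) for counting error alone. Each of 5 members is shown in 1 neuronal class, in GABA nuclei outside the 5 gates and in oligodendrocytes. Lhx8 and Isl1 in cholinergic nuclei lie between 20.9% and 36.0%, and Lhx2 in Slc17a6 nuclei between 2.13% and 4.69%.

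Slc17a7 nuclei, the smallest class, combined a high level of Zeb2 with low levels of Lhx8 and of striatal genes. Of 30 members, 6 were higher (4.10% of all genes) and 8 lower (2.98%), with a median of -0.63 beside -0.06 for all genes. Of the pallial list, Satb1 and Cux2 rose and Pax6 fell. Of the lateral ganglionic eminence and striatal list of 4, Isl1, Pbx3 and Six3 fell. Only male 1, male 2 and female 2 enter, and 1 UMI in female 2 amounts to 5.91 CPM.

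Zeb2, a zinc-finger homeodomain repressor, had 425, 357 and 426 CPM in these 3 sums. The next neuronal class sum was 82.6 CPM, in cholinergic female 1, and the log2 difference was 3.54 (SE 0.21, adjusted p = 3.08e-15). Oligodendrocytes are rich in Zeb2, and their markers Mbp, Mobp and Cldn11 summed to between 39.4 and 84.3 CPM in the 3 Slc17a7 sums used, against 59.2 to 109 CPM in GABA nuclei. The part of oligodendrocyte RNA in the Zeb2 difference was not tested. Pknox2 had 332, 203 and 302 CPM, also above every other neuronal sum, and rose by 1.73 (adjusted p = 1.95e-12). Satb1, a chromatin organiser with a cut-type homeodomain, had 119, 69.4 and 5.91 CPM and was called higher by 2.25 (adjusted p = 8.04e-08). That call rested on the males, since female 2 was below all GABA sums and the females alone gave a log2 difference of -1.63. Tshz3 likewise was high in the males and not in female 2, at 124, 95.7 and 35.5 CPM. Prox1 rose by 1.36 (adjusted p = 0.00566) and Cux2, an upper-layer cortical factor, by 1.04 (adjusted p = 0.00163). The call of Cux2 was lost without male 1 (0.35), that of Tshz3 without male 1 (0.57) or male 2 (0.90), and that of Prox1 without male 1 (adjusted p = 0.0964) or male 2 (adjusted p = 0.0711).

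Pbx3 fell to 49.3, 67.6 and 82.8 CPM in Slc17a7 nuclei, below every other neuronal sum, a difference of -3.24 (adjusted p = 1.06e-16). Zfhx4 had 9.54, 15 and 29.6 CPM and Zfhx3 44.5, 43.2 and 171 CPM. Their differences were -3.63 (adjusted p = 1.1e-11) and -2.51 (adjusted p = 2.89e-10), and female 2 was the highest of the 3 sums for both. Lhx8, Pax6 and Pou3f2 were at 0 UMIs in 1330589 UMIs, and were called lower. Six3 was called lower from 1 UMI and Isl1 from 2 UMIs. These low counts made the calls fragile: without male 1 the adjusted p was 0.0739 for Isl1, 0.0537 for Six3, 0.0886 for Pax6 and 0.0539 for Pou3f2. Six3 and Pou3f2 were also not called without male 2 (adjusted p = 0.118 and 0.0824), nor Six3 without female 2 (adjusted p = 0.053).

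Within the GABA class, nuclei with Moxd1, which encodes a monooxygenase-like protein, held high levels of Zeb2, Prox1, Lhx6 and Nkx2-1. Of 31 members tested against the mean of the other 4 subclasses, 4 were higher (2.65% of 13550 genes) and 5 lower (2.24%). The median was -0.04, beside 0.02 for all genes. Of the medial ganglionic eminence and preoptic list of 4, Lhx6 and Nkx2-1 rose. Prox1, the single gene listed for the caudal ganglionic eminence, rose as well.

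Zeb2 had 234, 242, 406 and 403 CPM in GABA Moxd1 nuclei, while the other 4 subclasses had means from 17.4 to 30.6 CPM. The lowest Moxd1 sum was above every sum of those subclasses, with a log2 difference of 3.66 (SE 0.11, adjusted p = 5.98e-26). Oligodendrocyte markers summed to between 57.5 and 144 CPM in Moxd1 nuclei and between 59.2 and 109 CPM in all GABA nuclei. After thinning, Zeb2 was seen in 35.8%, 28.2%, 42.9% and 46% of Moxd1 nuclei and in 3.1%, 4.6%, 7.48% and 4.69% of GABA nuclei outside the 5 gates. Lhx6 had 57.5, 49.9, 62.6 and 67.2 CPM and rose by 2.33 (adjusted p = 2.82e-14). Nkx2-1 had 13.8, 9, 5.45 and 10.8 CPM, its highest level in any GABA subclass, and rose by 3.27 (adjusted p = 6.61e-09). Prox1 had 65.6, 65.1, 81.7 and 99.5 CPM and rose by 2.45 (adjusted p = 1.98e-14).

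These 4 members kept their calls in Moxd1 nuclei when each library was left out in turn. The OPC marker list summed to between 1178 and 1729 CPM in Moxd1 nuclei, against 436 to 514 CPM in all GABA nuclei. Of that list, Sox6, a factor that migrating medial ganglionic eminence interneurons also make, accounted for 1078, 1224, 1533 and 1022 CPM. The part of OPC RNA in the Prox1 and Zeb2 differences was not tested. Among members that fell, Zfhx3 had 218, 130.1, 152 and 258 CPM and Zfhx4 65.6, 38.5, 51.7 and 26.9 CPM. Their log2 differences were -1.95 (adjusted p = 3.53e-17) and -1.84 (adjusted p = 4.35e-16). Meis1 (-1.68, adjusted p = 6.07e-08), Onecut2 (-1.64, adjusted p = 0.00165) and Pbx3 (-1.14, adjusted p = 4.82e-11) fell as well. The call of Onecut2 was lost without male 1 (adjusted p = 0.187).

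**Figure D4:**
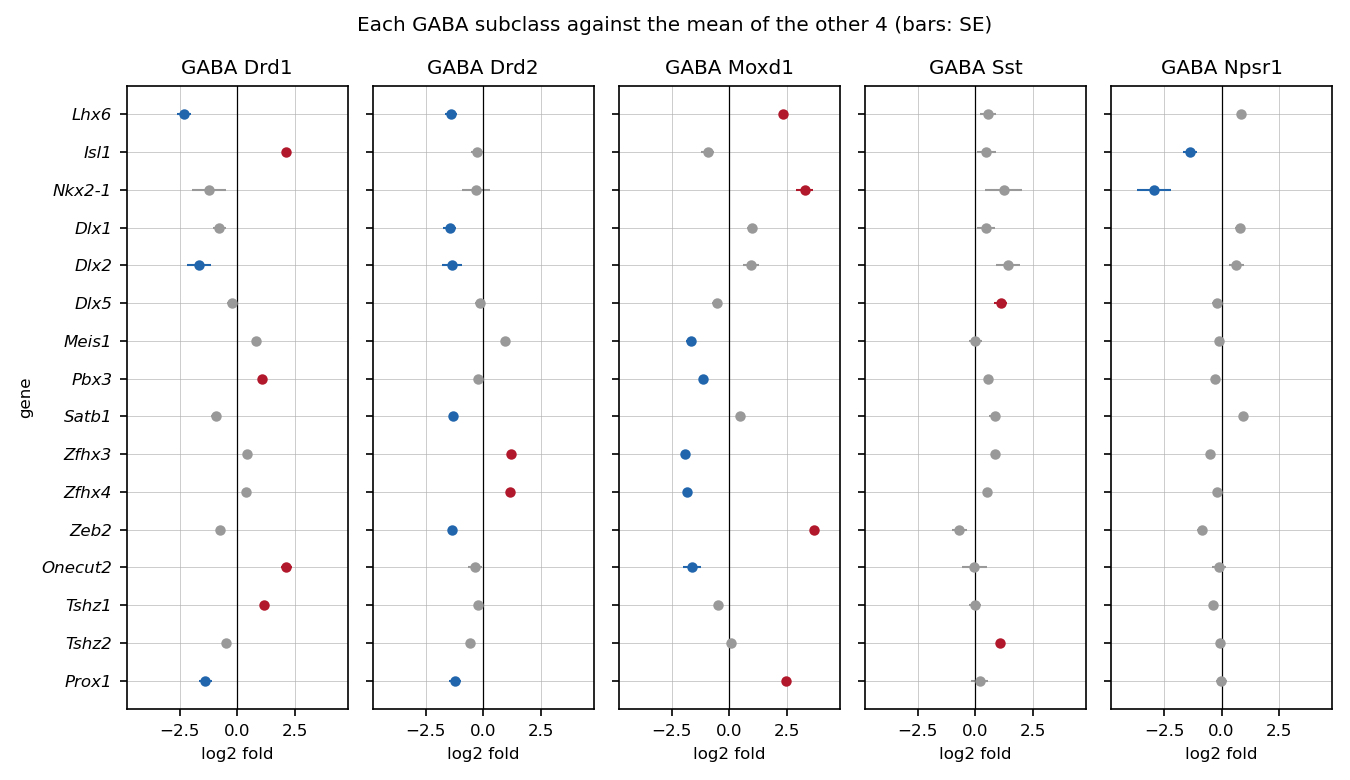
Log2 differences of members between each GABA subclass and the mean of the other 4, with bars of 1 standard error, for members called in at least 1 subclass (red, higher, blue, lower, grey, not called). Zeb2, Nkx2-1, Prox1 and Lhx6 are above 2 in Moxd1 nuclei, and Isl1 and Onecut2 are above 2 in Drd1 nuclei.

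In nuclei with the dopamine receptor Drd1, 3 of the 4 members listed for the lateral ganglionic eminence and striatum were higher. Of 31 members, 4 were higher (0.900% of all genes) and 3 lower (0.649%), with a median of -0.01 beside 0.01. Of the lateral ganglionic eminence and striatal list of 4, Isl1, Pbx3 and Tshz1 rose. Isl1 was at 54.5, 51.9, 0 and 56 CPM, and female 1, with 21 nuclei, held none, while Tac1 and Pdyn, 2 peptide genes of this type of neuron, were present in all 4 libraries. The log2 difference of Isl1 was 2.13 (SE 0.21, adjusted p = 6.38e-10). Isl1 is also on the marker list of Drd1 neurons. Sums of a list of 4 striatal projection neuron markers overlapped between 3 subclasses, at 1056 to 1729 CPM in Drd1, 1226 to 1986 CPM in Drd2 and 1366 to 1729 CPM in Moxd1 nuclei. Onecut2, a cut-type factor, had 19.99, 18.1, 12 and 13.1 CPM and rose by 2.14 (adjusted p = 2.05e-08). Tshz1, a teashirt factor of the striatum and intercalated cells, had 66.2, 53.6, 89.7 and 20.5 CPM and rose by 1.17 (adjusted p = 2.77e-08), a call lost without male 1 at 0.97. At full depth, Tshz1 was seen in female 2 in 8.93% of Drd1 and 9.09% of Sst nuclei. In male 1 these shares were 33.7% and 28.9%, and in male 2 37.4% and 20.6%. Pbx3 rose by 1.09 (adjusted p = 1.67e-11). Lhx6 (-2.32, adjusted p = 4.21e-07), Dlx2 (-1.66, adjusted p = 0.0372) and Prox1 (-1.38, adjusted p = 0.00109) fell, the last call lost without male 1 at -1.10.

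Nuclei with Drd2 were led by Zfhx3 and Zfhx4. Of 31, 2 were higher (1.90% of all genes) and 6 lower (1.23%), with a median of -0.13 beside -0.02. Zfhx3 had 1009.8, 982, 943 and 1033 CPM and Zfhx4 262, 280.5, 236 and 168 CPM. The 4 Zfhx3 values were close to each other, and the differences were 1.19 (SE 0.08, adjusted p = 2.58e-14) and 1.15 (SE 0.08, adjusted p = 2.14e-14). Isl1 was at 14.6, 12.7, 10.2 and 10.6 CPM, below the Drd1 values in the males and in female 2, and was not called. Six3 was at 15.2, 20.1, 14 and 9.25 CPM in Drd2 and 16.7, 17.3, 17.9 and 9.33 CPM in Drd1 nuclei. Of those lower, Dlx1 differed by -1.46 (adjusted p = 0.000122), Lhx6 by -1.40 (adjusted p = 4.69e-05) and Dlx2 by -1.36 (adjusted p = 0.0287). Zeb2 (-1.35), Satb1 (-1.32) and Prox1 (-1.24) completed the count. Without male 2, Dlx1 (-0.98) and Satb1 (-0.96) fell under the fold threshold, and without female 2 Dlx2 had an adjusted p of 0.0709. Adora2a, the adenosine receptor of striatal Drd2 neurons, marked all 4 libraries at 37.8, 41.6, 40.8 and 39.6 CPM.

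Few members moved in the other 2 subclasses. In Sst nuclei, which enter with 3 libraries of 38, 34 and 44 nuclei, Dlx5 at 22.3, 28.5 and 7.85 CPM rose by 1.09 (adjusted p = 0.0319) and Tshz2 at 701, 855 and 978 CPM by 1.04 (adjusted p = 3.29e-09). That is 2 of 31 members beside 0.760% of all genes, and 0 lower beside 0.303%. In either direction, 10 of 31 members had an unadjusted p under 0.05, beside 1691 of 13550 genes. Without male 2 both fell under the fold threshold, at 0.82 and 0.97, and Dlx5 also did without male 1, at 0.93. In Npsr1 nuclei, named for the neuropeptide S receptor, 0 members were higher (1.06% of all genes) and 2 lower (0.738%). An unadjusted p under 0.05 was reached by 13 of 31 members, beside 2849 of 13550 genes. Nkx2-1 was found in male 1 alone, at 0.855 CPM, and fell by 2.94 (adjusted p = 0.00539). Isl1 at 3.42, 11.4, 5.27 and 5.76 CPM fell by 1.37 (adjusted p = 0.000665), and the log2 difference was -0.56 without male 1. DESeq2 called 1 member in Npsr1 nuclei.

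Glial classes were compared with the mean of the 4 neuron classes. Neuronal RNA was present in them: the vesicular GABA transporter Slc32a1 was at 35.4, 31.5, 23 and 66.2 CPM in oligodendrocytes and 41.1, 44.1, 16.4 and 60.5 CPM in GABA nuclei, and Snap25 at 319.9, 289, 339 and 341 and 865, 845, 786 and 754 CPM. The part of neuronal RNA in the low glial levels of neuronal members was not tested. Class differences were also common here, with 8.67% to 16.9% of all genes called in each direction.

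Astrocytes carried Pou3f2 and Pou3f3, POU class III factors, and 3 pallial genes. Of 30 members, 8 were higher (16.9% of all genes) and 7 lower (15.3%), with a median of -0.09 beside 0.04. Without Slc17a7 nuclei they were 9 and 8 of 29 (16.5% and 15.6%), and without the filter too 10 and 14 of 39 (10.2% and 10.3%). Pou3f2 had 85.4, 94.2, 61.6 and 98.3 CPM against 6.19, 6.7, 7.52 and 11.5 CPM in GABA nuclei, and Pou3f3 101, 103, 56 and 57.1 against 8.38, 9.1, 8.87 and 8.93 CPM. No astrocyte value of either overlapped a neuronal one. The log2 differences were 3.62 (adjusted p = 1.21e-17) without Slc17a7 nuclei and 4.41 (adjusted p = 3.57e-19). Pou3f1, of the same POU class, was at 0, 0, 1.4 and 0 CPM. Of the pallial list of 6, Emx2, Lhx2 and Pax6 rose and Cux2 fell, and without Slc17a7 nuclei the call of Cux2 was lost (-0.93) and Satb1 rose. Emx2 had 26.8, 18.8, 2.8 and 16 CPM, Lhx2 13.9, 17.6, 28 and 6.86 CPM and Pax6 39.7, 38.9, 18.2 and 48 CPM. Emx2 was low in female 1 and Lhx2 low in female 2, and Pax6 in female 1 lay inside the GABA range. Their differences were 3.63 (adjusted p = 2.45e-21) for Emx2 without filter and Slc17a7 nuclei, 2.41 (adjusted p = 1.87e-05) for Lhx2 and 2.28 (adjusted p = 1.57e-10) for Pax6 without Slc17a7 nuclei. Meis1 rose by 2.36, Six3 by 2.23 and Zeb2 by 1.97. The members called lower were Gbx1, Onecut2, Pbx3, Tshz3, Isl1, Tshz2 and Cux2, of which Pbx3 fell by 1.87 (adjusted p = 2.06e-15). Isl1 rested on 4, 1, 4 and 0 UMIs and turned positive without male 2 (0.50), lost its call without female 2 (adjusted p = 0.0672), and was positive in the females alone (1.45). Gbx1 was not called without male 2, and Onecut2 was positive in the females alone (0.66).

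Oligodendrocytes and OPC shared Zeb2, Prox1, Pou3f1 and Pou3f3 as members called higher with and without Slc17a7 nuclei. In oligodendrocytes 9 members were higher (15.5% of all genes) and 4 lower (10.3%), and in OPC 9 (13.4%) and 2 (8.67%). The medians were 0.21 beside 0.10 for all genes in oligodendrocytes and 0.31 beside 0.05 in OPC. Without Slc17a7 nuclei, 6 of 29 were higher and 8 lower in oligodendrocytes (14.5% and 11%), and 7 and 6 in OPC (13.0% and 8.50%). Zeb2, which myelinating cells require, had 1283, 1376, 1465 and 995 CPM in oligodendrocytes and 541, 459, 596 and 500.3 CPM in OPC. Every library of both was above all cholinergic, GABA and Slc17a6 sums, with log2 differences of 4.12 (adjusted p = 1.87e-23) and 2.79 (adjusted p = 7.27e-17). Prox1 had 119.9, 131, 146 and 93.1 CPM in oligodendrocytes and rose by 3.32 (adjusted p = 1.07e-22), and in OPC by 1.36 (adjusted p = 2.59e-06).

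Pou3f1, a factor known from myelinating Schwann cells, had 23.8, 26.2, 5.27 and 23.9 CPM in oligodendrocytes and 24.6, 40.8, 23.9 and 78.7 CPM in OPC. It rose by 3.04 (adjusted p = 6.82e-12) and 4.07 (adjusted p = 2.03e-13), with female 1 the lowest library in both. Pou3f3 rose by 3.12 (adjusted p = 1.54e-15) in oligodendrocytes and 3.37 (adjusted p = 3.22e-13) in OPC. Pou3f2 had 31.6, 30.3, 23.9 and 44.6 CPM in OPC and 3.97, 5.58, 5.92 and 12.4 CPM in oligodendrocytes. Without Slc17a7 nuclei it was higher in OPC (2.18, adjusted p = 1.86e-09) and not in oligodendrocytes (-0.08, adjusted p = 0.784), and the calls of Pax6 in both classes were lost in that fit. Pou3f2 in oligodendrocytes was also not called without male 2 or female 2. Onecut2 went opposite ways, higher in oligodendrocytes (1.34, adjusted p = 8.21e-07) and lower in OPC (-2.33, adjusted p = 0.00122), though the females alone gave 0.91 in OPC. Meis1 was higher in oligodendrocytes by 2.02, and Satb1 and Six3 in OPC by 1.56 and 1.91. Emx2, at 2.84, 2.95, 1.65 and 3.02 CPM in oligodendrocytes and 3.51, 4.66, 3.98 and 5.87 CPM in OPC, was higher by 1.07 (adjusted p = 0.0236) and 1.73 (adjusted p = 0.00725) without filter and Slc17a7 nuclei. The 4 Slc17a6 values of Emx2 overlapped both. Pbx3 fell in OPC, and Tshz3, Pknox2, Tshz2 and Meis3 fell in oligodendrocytes.

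Microglia arise outside the neural tube, in the yolk sac, and were led by Zeb2 and Zfhx3. Of 30 members, 6 were higher (16.9% of all genes) and 4 lower (13.2%), with a median of 0.11 beside 0.06. Without Slc17a7 nuclei they were 4 and 7 of 29 (15.9% and 13.6%). Zeb2 had 1074, 1196, 1112 and 979.9 CPM and Zfhx3 1732, 1626, 1384 and 1269 CPM. Both were above every neuronal sum used, with differences of 3.67 (adjusted p = 4.81e-21) and 2.30 (adjusted p = 1.12e-17). Pbx2 and Pknox1, 2 TALE factors, rose by 1.15 (adjusted p = 0.000665) and 1.13 (adjusted p = 1.18e-06), and Pbx2 dropped to 0.92 without female 1. Prox1 rose by 1.03 (adjusted p = 0.00112), a call lost without male 2 (0.91) or female 2 (0.92). Oligodendrocyte markers summed to 143, 227, 682 and 305 CPM in microglia, against 59.2 to 109 CPM in GABA nuclei. The part of oligodendrocyte RNA in the Prox1 and Zeb2 differences was not tested. The call of Pax6 was lost without Slc17a7 nuclei, without male 2 and without female 2. Tshz3 (-3.02, adjusted p = 3.29e-09), Onecut2, Pknox2 and Tshz2 fell. Onecut2 was not called without male 1, female 1 or female 2 (adjusted p from 0.0636 to 0.118).

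No member was called between male and female libraries in any of the 11 classes and subclasses tested. Sex differences in neurons of this area are what the series set out to quantify. With edgeR, 22 of 278 tests of a member in a class had an unadjusted p under 0.05, and with DESeq2 also 0 members were called. In GABA nuclei these were 2 of 36 members, beside 2929 of 18347 genes. In Slc17a6 nuclei, which had the most, they were 5 of 26 members, beside 1636 of 12227 genes. Of all genes, 0% were called higher and 0.00545% lower in male GABA nuclei, and at most 0.118% and 0.560% in any of the 11, both in GABA Drd1. In GABA nuclei, Pbx2 was at 5.91, 6.33, 10.1 and 10.3 CPM, a male minus female log2 difference of -0.66 (SE 0.19, adjusted p = 0.287). Dlx1 was at 11, 11.5, 4.46 and 7.94 CPM (0.95, SE 0.30, adjusted p = 0.297) and Cux2 at 64.9, 67.9, 55.8 and 60.9 CPM (0.26, SE 0.10, adjusted p = 0.317). Males were lower in Pbx2 and higher in Dlx1 without overlap, in a design of 2 against 2 libraries. Lhx8 and Isl1 in cholinergic nuclei differed by -0.21 (SE 0.18, adjusted p = 0.751) and 0.23 (SE 0.23, adjusted p = 0.816).

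The sex comparison carried a limit of its own. Depth, gene list, software version and barcode set all changed with sex, so these and sex cannot be told apart. Gene lists held 33696 genes in each male library, 55357 in female 1 and 32285 in female 2, so they also differed between the females. Members were called in GABA nuclei when either female library was left out, and not when either male library was. Such a fit holds a lone library of 1 sex. The share of all genes called in it is not given, so it is not read as a result about the members. Whether the sex difference of a member varied over the 4 neuron classes was tested as an interaction with edgeR. Of 33 members tested, 0 were called, beside 0.758% of 12012 genes. An unadjusted p under 0.05 was reached by 8 of the 33, and the share of all genes at that looser threshold was not counted. Zeb2 was nearest, with an adjusted p of 0.05003, followed by Zfhx3 at 0.0520.

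**Figure D5:**
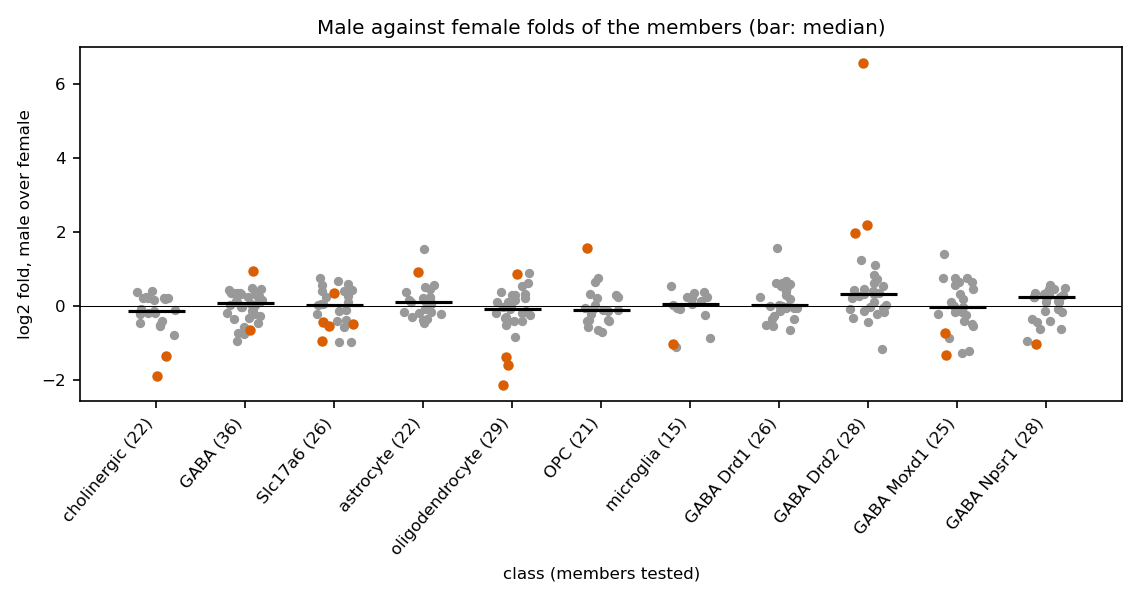
Male minus female log2 differences of each member tested (points) in 11 classes and subclasses, with the number tested beside the class and a bar at the median. The 22 orange points have an unadjusted p under 0.05, and 0 members passed adjustment.

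Of a list of 80 other homeobox genes that are no members, 22 passed the filter. Of these, 0 were higher and 1 lower in cholinergic nuclei, 2 and 1 in GABA, 1 and 0 in Slc17a6 and 0 and 2 in Slc17a7 nuclei, with edgeR. Those with an unadjusted p under 0.05 numbered 7, 7, 6 and 3 of 22, beside 3833, 2938, 2536 and 2944 of 12782 genes. Meis2, the striatal relative of Meis1, was higher in GABA nuclei by 2.44 (SE 0.14, adjusted p = 1.06e-14) and in Slc17a6 nuclei by 1.44, and lower in Slc17a7 nuclei (-3.36). Pou3f4, a POU factor, was higher in GABA nuclei by 1.59 (SE 0.50, adjusted p = 0.0316), and Dbx2 was lower there (-1.04). Mkx was the gene lower in cholinergic nuclei (-1.06), and Zeb1 the other gene lower in Slc17a7 nuclei (-1.36). Without Slc17a7 nuclei, Meis2 was lower in cholinergic nuclei (-1.86), the calls of Meis2 in Slc17a6 nuclei and of Dbx2 in GABA nuclei were lost, and Pou3f4 did not pass the filter.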

How the data were processed

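Single-nucleus RNA was counted in 2 male and 2 female libraries. The authors deposited, for each, a matrix of raw UMI counts per gene and barcode. The build mm10 and the tools Cell Ranger 6.0.1 and Seurat 5 are named, per the submitters' processing notes. Per the file headers, the matrices came from Cell Ranger 9.0.1 (both males), 7.0.0 (female 1) and 7.2.0 (female 2). The deposited counts summed, in library order, to 158132452, 144035342, 53098268 and 53679351 UMIs. Label protocols name kit versions 2 and 3 without saying which library used which.

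Nuclei with 500 to 8000 genes and under 5% mitochondrial UMIs were kept. Classes were gated on raw UMIs, and nuclei past the gates of more than 1 class (1164, 1039, 561 and 588) were dropped, which is also how doublets were treated. Nuclei past no gate numbered 1739, 1798, 5193 and 4893. GABA nuclei past more than 1 subclass gate (61, 58, 12 and 21) entered no subclass. UMIs were summed per library and class, and sums of fewer than 20 nuclei were left out. Sums were tested with edgeR 4.0.16 in R 4.3.3 (quasi-likelihood, TMM, filterByExpr, library as a block for class contrasts, p-values adjusted over all genes tested). Scripts were tested on simulated counts. DESeq2 1.42.0 and other settings were tried as alternatives. All members are accounted for, and those named with values are the called members of each contrast, the members of the territory lists and, for sex, the 3 with the smallest p in GABA nuclei. The members and lists were chosen with earlier results of these data known. For the territory lists, values of members not named in a class are shown in the heatmap only. Of the members, 12 overlap a gene on the same strand and 24 a gene on the opposite strand, so reads may have been shared. A few genes of the marker and homeobox lists are not reported here and were left out of their sums and counts.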

Additional observations from a re-analysis of the deposited data

How the results depend on the processing

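Of 125 calls of single members, those lost or reversed numbered 43 of the 118 that could be compared in the females alone, 11 in the males alone, 29 without the nuclei of highest UMIs, 18 with raised gates, 21 of 79 without Slc17a7 nuclei, 6 with DESeq2 and 0 with median-ratio scaling. With 1 library left out, they numbered 17 of 121 for male 1, 17 of 121 for male 2, 2 of 124 for female 1 and 8 of 125 for female 2. The Slc17a6 count of 9 became 14 with DESeq2, 14 without the filter and 18 without filter and Slc17a7 nuclei. The astrocyte count of 15 became 24 in that last fit, and the microglia count of 10 became 6 in males alone. The Slc17a7 count of 14 became 7 in females alone, 7 without high-UMI nuclei and 9 to 14 with 1 library left out. Drd1 (7) became 3 in females alone and 4 to 8 with 1 library left out, Drd2 (8) 5 to 9, and Moxd1 (9) 14 without high-UMI nuclei. Sst (2) became 1 without the block, in females alone and without high-UMI nuclei, and 0 to 3 with 1 library left out. Npsr1 (2) became 1 with DESeq2, without the block and in females alone, 4 without high-UMI nuclei and 0 to 2 with 1 library left out. Signs reversed in females alone for Satb1 (-1.63) and Tshz3 (-0.683) in Slc17a7 nuclei, Isl1 (1.45) and Onecut2 (0.66) in astrocytes and Onecut2 (0.91) in OPC. Isl1 in astrocytes also reversed without high-UMI nuclei (0.063), and ran from -2.13 to 0.503 with 1 library left out. Without Slc17a7 nuclei, Zeb2 in GABA nuclei (0.016) and Pou3f2 in oligodendrocytes (-0.076) reversed, and without the filter too, Zeb2 (0.13), Pou3f2 (-0.14) and Pax6 in microglia (-0.024). The cause was not tested.

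With 1 library left out, where the lone sample of a sex is assumed to vary like the other sex, sex counts (0 in each class) ran from 0 to 5 in cholinergic, 0 to 21 in GABA, 0 to 7 in Slc17a6, 0 to 4 in astrocyte, 0 to 13 in oligodendrocyte, 0 to 5 in OPC, 0 to 2 in microglia, 0 to 6 in Drd1, 0 to 5 in Drd2, 0 to 4 in Moxd1 and 0 to 3 in Npsr1 sums. Without high-UMI nuclei they were 1 in cholinergic and 2 in Drd1 sums, and without the filter 1 each in OPC, microglia and Drd1 sums. A replicate block gave 1 in OPC and changed no other sex count. Over genes, the male 1 minus male 2 difference was correlated with the female 1 minus female 2 difference. The correlation was 0.0642 (cholinergic), 0.151 (GABA) and 0.0624 (Slc17a6). It cannot show whether same-numbered libraries were paired, and replicate numbers are not said to pair them. The interaction count of 0 became 5 without the filter and 1 to 2 with 1 library left out, and without female 2 it could not be fitted. Mean shares changed from 23.7% to 13.2% (1000 UMIs) and 62.9% (full depth) for Lhx8 and from 27.7% to 12% and 69.8% for Isl1 in cholinergic nuclei. They changed from 3.45% to 1.82% and 13.6% for Lhx2 in Slc17a6 nuclei, and in Moxd1 nuclei from 38.2% to 27.9% and 59.6% for Zeb2 and from 12.3% to 7.34% and 36.5% for Lhx6.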
